A study of Mus musculus with 4 samples.

Results

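The immediate early genes of liver regeneration were examined in ATACseq and H2A.Z ChIPseq peak lists of the unresected mouse liver. They were 10 genes given by name (Fos, Fosb, Fosl2, Jun, Junb, Jund, Myc, Egr1, Atf3 and Ier2) of the 55413 genes annotated in GENCODE vM21, of which 21938 code for proteins. Every peak that overlapped the gene or the 10 kb on either side of its transcription start site (TSS), called the region here, was taken from each list. ATACseq, which marks DNA that a transposase can reach, and ChIPseq for the histone variant H2A.Z were each made from 1 WT and 1 Uhrf1hepKO liver, so there were 4 peak lists and no replicates. The same livers served for both assays. The Uhrf1hepKO mouse was Uhrf1 fl/fl with Alb:Cre, in which the albumin promoter drives the recombinase in hepatocytes, and the WT mouse was Uhrf1 fl/fl. Both were C57Bl/6 males of 8 to 12 weeks on a normal diet, and livers were collected from 9 am to noon. UHRF1 is the protein that brings the maintenance DNA methyltransferase to newly copied DNA. Whole liver was used, so a different mix of cell types and a change within cells of 1 type cannot be told apart. With 1 liver per genotype, values are set side by side and no difference between genotypes was tested.

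Immediate early genes are transcribed within minutes of a growth or stress signal without new protein being made. In the liver they respond to the removal of lobes, when quiescent hepatocytes prepare to enter the cell cycle. FOS and JUN proteins pair through leucine zippers to form the transcription factor AP-1, MYC raises the transcription of growth and ribosome genes, and EGR1 is a zinc finger factor downstream of serum response factor. ATF3 is a stress-induced factor of the ATF/CREB family, and IER2 is a nuclear protein induced by growth factors. H2A.Z sits in the nucleosomes beside the start of many genes that are active or ready to be activated, on either side of a stretch of open DNA.

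The RefSeq sequence of the 250 bases before the start is given for 4 members that had an ATACseq peak at or just before that start in both livers (GRCm38.p6). Sequences run 5′ to 3′ along the gene, and capitals mark exact matches, on either strand, of the GC box GGGCGG and the TATA box TATAAA.
Fos, chr12:85473640-85473889, plus strand: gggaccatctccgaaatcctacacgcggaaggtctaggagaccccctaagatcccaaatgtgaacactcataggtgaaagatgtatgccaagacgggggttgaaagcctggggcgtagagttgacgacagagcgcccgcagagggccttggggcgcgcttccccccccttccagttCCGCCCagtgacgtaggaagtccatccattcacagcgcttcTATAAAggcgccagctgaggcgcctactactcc
Fosb, chr7:19310046-19310295, minus strand: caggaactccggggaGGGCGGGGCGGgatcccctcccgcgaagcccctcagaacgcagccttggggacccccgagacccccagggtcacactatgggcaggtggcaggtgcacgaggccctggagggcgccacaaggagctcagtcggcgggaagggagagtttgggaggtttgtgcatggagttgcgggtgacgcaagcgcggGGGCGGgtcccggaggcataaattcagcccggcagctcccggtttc
Jun, chr4:95052223-95052472, minus strand: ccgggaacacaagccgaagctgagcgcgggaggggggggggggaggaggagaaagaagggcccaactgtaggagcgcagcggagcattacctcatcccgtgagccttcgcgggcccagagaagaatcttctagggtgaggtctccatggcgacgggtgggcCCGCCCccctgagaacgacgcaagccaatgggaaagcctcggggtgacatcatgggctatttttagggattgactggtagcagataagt
Atf3, chr1:191183334-191183583, minus strand: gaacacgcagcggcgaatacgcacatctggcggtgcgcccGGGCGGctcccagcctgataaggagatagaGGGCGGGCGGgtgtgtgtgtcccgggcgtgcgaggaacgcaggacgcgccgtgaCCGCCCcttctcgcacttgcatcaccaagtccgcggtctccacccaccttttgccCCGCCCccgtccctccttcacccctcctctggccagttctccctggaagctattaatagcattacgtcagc

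All 250 printed bases of Fos and of Atf3 lay under an ATACseq peak in both livers. For Jun, 185 of the 250 bases lay under the WT peak and 167 under the Uhrf1hepKO peak. No printed base of Fosb did, because its ATACseq peak began further upstream. H2A.Z peaks covered 140 and 144 of the Fos bases and 98 and 121 of the Fosb bases, in WT and Uhrf1hepKO respectively, and none of those of Jun or Atf3. The GC content was 58.4% in Fos, 68.8% in Fosb, 61.2% in Jun and 65.2% in Atf3. The stretches held 15 CpGs in Fos, 19 in Fosb, 15 in Jun and 24 in Atf3.

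Exact motif matches were counted in windows of 300 bases, from 250 before to 50 after the RefSeq start, on both strands with overlapping matches counted, for the 7 members that were matched, Fos, Fosb, Fosl2, Jun, Junb, Jund and Atf3. The GC box was in 5 of the 7 windows (Fos, Fosb, Fosl2, Jun and Atf3), and in 35.7% of 32851 windows of the same length over all genes. The TATA box letters TATAAA were in 2 of 7, against 13.6% of all windows. They were 33 bp upstream of the start in Fos and 1 bp downstream of it in Junb. The counts took the letters at any position in the window, so a match need not be a working TATA box. None of the 7 held the AP-1 site (TGACTCA or its complement TGAGTCA), the CRE TGACGTCA, the E box CACGTG or the CArG box bound by serum response factor. Those motifs were in 5.2%, 1.79%, 7.15% and 1.63% of all windows. Only exact letters were counted, so variants of these motifs and sites outside the windows were not covered. The printed Jun stretch, for example, holds tgacatca, which is close to the CRE but was not counted. Myc, Egr1 and Ier2 had no matched window and were not searched. The counts therefore do not show that these promoters lack such sites. The windows of 3 of the 7 genes are set far from the gene start used for the promoter calls, since the RefSeq start is 1210 bp upstream of it in Jund, 671 bp downstream in Fosl2 and 34706 bp downstream in Atf3. The 250 bases before the RefSeq start of Jund held 3 CpGs and lay under no peak of any list, so the counts for Jund and Fosl2 do not describe the promoters in which their peaks are given. Around the gene's TSS, members had a median of 70 CpGs within 500 bp (range 17 to 102, the lowest in Atf3), and all protein-coding genes a median of 41.

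The lists held 10582 WT and 10764 Uhrf1hepKO ATACseq peaks, and 51450 WT and 47135 Uhrf1hepKO H2A.Z peaks, on chromosomes 1 to 19, X and Y. Read depth is known only through the peaks. From the folds and p-values, the ATACseq background was 1.56 reads per base in WT and 2.0 in Uhrf1hepKO, and that of H2A.Z was 3.1 and 3.3. The fold and p-value of a peak gave a whole number of reads on these backgrounds for 93.6% and 91.4% of the H2A.Z peaks but only 6.24% and 6.48% of the ATACseq peaks, so the ATACseq backgrounds are less certain. The ATACseq lists reached up to q of 0.0997 and 0.0993 and the H2A.Z lists up to 0.05 and 0.0489, so the presence of a peak follows a looser limit in ATACseq. Of 20 marker genes of liver cell types, 4 had a peak within 5 kb of the TSS in any list: Alb in Uhrf1hepKO ATACseq and Ttr in WT H2A.Z among 5 hepatocyte genes, Cd68 in both H2A.Z lists among 5 Kupffer cell and leukocyte genes, and Sox9 in WT ATACseq and both H2A.Z lists among 3 cholangiocyte genes. The hepatocyte genes Apoa1, Apob and Hnf4a and all 7 endothelial and stellate genes had none in that window. In the wider region used for the members, in the order WT and Uhrf1hepKO ATACseq, then WT and Uhrf1hepKO H2A.Z, the genes with a peak were 1, 2, 1 and 0 of the 5 hepatocyte genes, 1, 1, 2 and 1 of the 5 Kupffer cell and leukocyte genes, and 2, 1, 3 and 3 of the 4 endothelial genes. They were 1, 0, 1 and 1 of the 3 cholangiocyte genes and 0 of the 3 stellate genes in each list. Uhrf1 had a peak in each list (fold 3.96 and 4.7 in WT and Uhrf1hepKO ATACseq, 6.58 and 6.04 in H2A.Z). A peak there does not check the deletion.

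At the promoter, the 500 bp upstream of the TSS, 4 of the 10 members had an ATACseq peak in WT (Fos, Fosb, Jun and Jund), against 22.3% of all protein-coding genes. In Uhrf1hepKO the number was 7 of 10, the same 4 with Junb, Myc and Ier2, against 20.5% of all protein-coding genes. H2A.Z was at 7 of 10 promoters in each liver, and these were the same genes (Fos, Fosb, Fosl2, Jund, Myc, Egr1 and Ier2). The background was 37.5% in WT and 36.2% in Uhrf1hepKO. Jun, Junb and Atf3 had no H2A.Z peak there in either liver, and Fosl2, Egr1 and Atf3 had no ATACseq peak there. A site without a peak is one not called at this depth and threshold, and why it was not called was not tested.

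In the wider region, 7 members had an ATACseq peak in WT and 9 in Uhrf1hepKO, and all 10 had an H2A.Z peak in each liver. The shares of all protein-coding genes, with regions built in the same way, were 39.2% and 37.7% for ATACseq and 64.3% and 62.4% for H2A.Z. With peaks of q at most 0.01, 6 members had an ATACseq peak in the region in WT and 4 in Uhrf1hepKO. The shares of all protein-coding genes at that limit were not computed for regions. In Uhrf1hepKO, Atf3 counted for H2A.Z only through peaks at the neighbouring lincRNA D730003I15Rik. Member genes are shorter (median 4609.5 bp, against 17425 bp) and richer in CpGs than the whole set. Among the 15056 protein-coding genes with at least 17 CpGs within 500 bp of the TSS, as many as the lowest member, promoter peaks were found in 32.1% and 29.4% for ATACseq and in 52.7% and 50.9% for H2A.Z. In that set 50.4% and 48.0% of the regions had an ATACseq peak, and 78.9% and 76.6% an H2A.Z peak. The limit of 17 came from Atf3 alone, and the next lowest member, Egr1, had 42 CpGs. The set was therefore not matched to the members in CpG content.

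**Figure D1:**
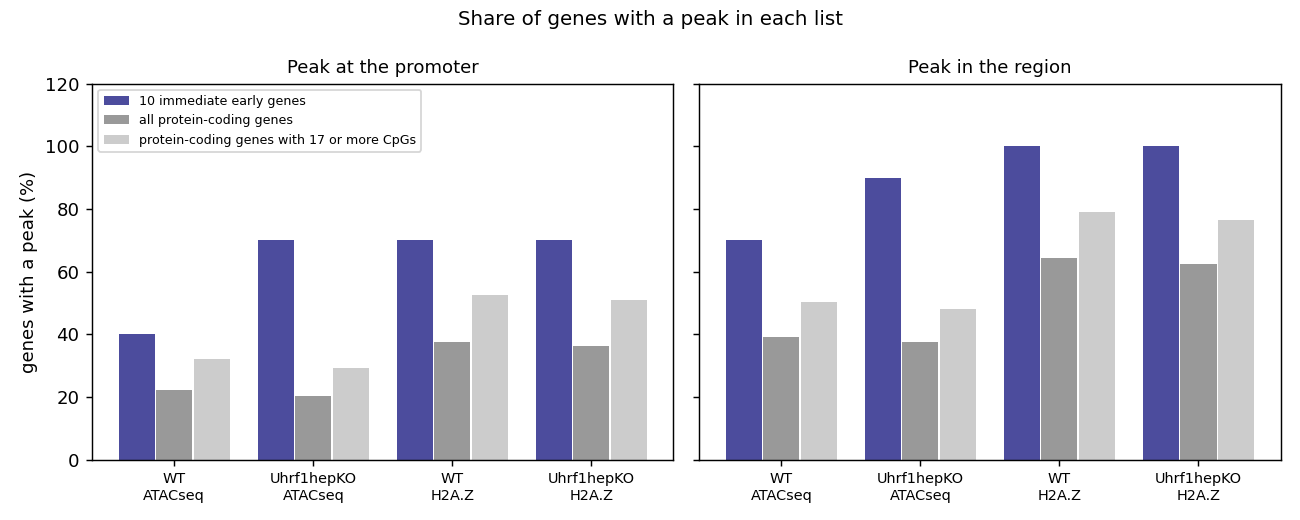
Share of genes (percent) with a peak at the promoter (left) and in the region (right) in each of the 4 lists, for the 10 immediate early genes, all protein-coding genes, and protein-coding genes with 17 or more CpGs within 500 bp of the TSS. At the promoter the members stand at 4 of 10 in WT ATACseq and at 7 of 10 in the other 3 lists.

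Promoter ATACseq peaks were in Uhrf1hepKO only at 3 of 10 members, Junb, Myc and Ier2, against 3.31% of all protein-coding genes. None of the 10 had one in WT only, against 5.14%. This difference depended on the threshold of the peak calls. With peaks of q at most 0.01, the members were 4 in WT (background 19%) and 3 in Uhrf1hepKO (16.6%). Fos and Jund were then in WT only (2 of 10, background 5.05%) and Ier2 in Uhrf1hepKO only (1 of 10, background 2.6%). The WT list had no peak at the Ier2 promoter at any q. The estimated ATACseq background of Uhrf1hepKO was 1.29 times that of WT. This ratio is uncertain, since only 6.24% of WT and 6.48% of Uhrf1hepKO ATACseq peaks gave a whole number of reads. The part of depth in these calls was not tested. For H2A.Z in the same 500 bp, no member had a promoter peak in 1 genotype only, and the backgrounds were 2.04% for Uhrf1hepKO only and 3.41% for WT only.

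The members' regions held 11 WT and 16 Uhrf1hepKO ATACseq peaks and 42 WT and 37 Uhrf1hepKO H2A.Z peaks. ATACseq folds are the pileup of reads over the caller's background, averaged over the peak. They ran from 3.52 to 6.73 in WT (median 4.54, all peaks 4.31) and from 3.3 to 5.16 in Uhrf1hepKO (median 3.59, all peaks 4.05). H2A.Z folds, taken at the summit, ran from 2.92 to 9.26 (median 5.85, all peaks 5.12) and from 3.25 to 10.5 (median 5.81, all peaks 5.35). Folds are not scaled between lists, so they are compared with the median of their own list. Of the WT ATACseq peaks 6 of 11 reached that median, and 5 of 16 in Uhrf1hepKO did. For H2A.Z, 28 of 42 and 20 of 37 did. Some peaks lay nearer to the TSS of another gene, 4 of 11 and 6 of 16 in ATACseq and 11 of 42 and 9 of 37 in H2A.Z.

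**Figure D2:**
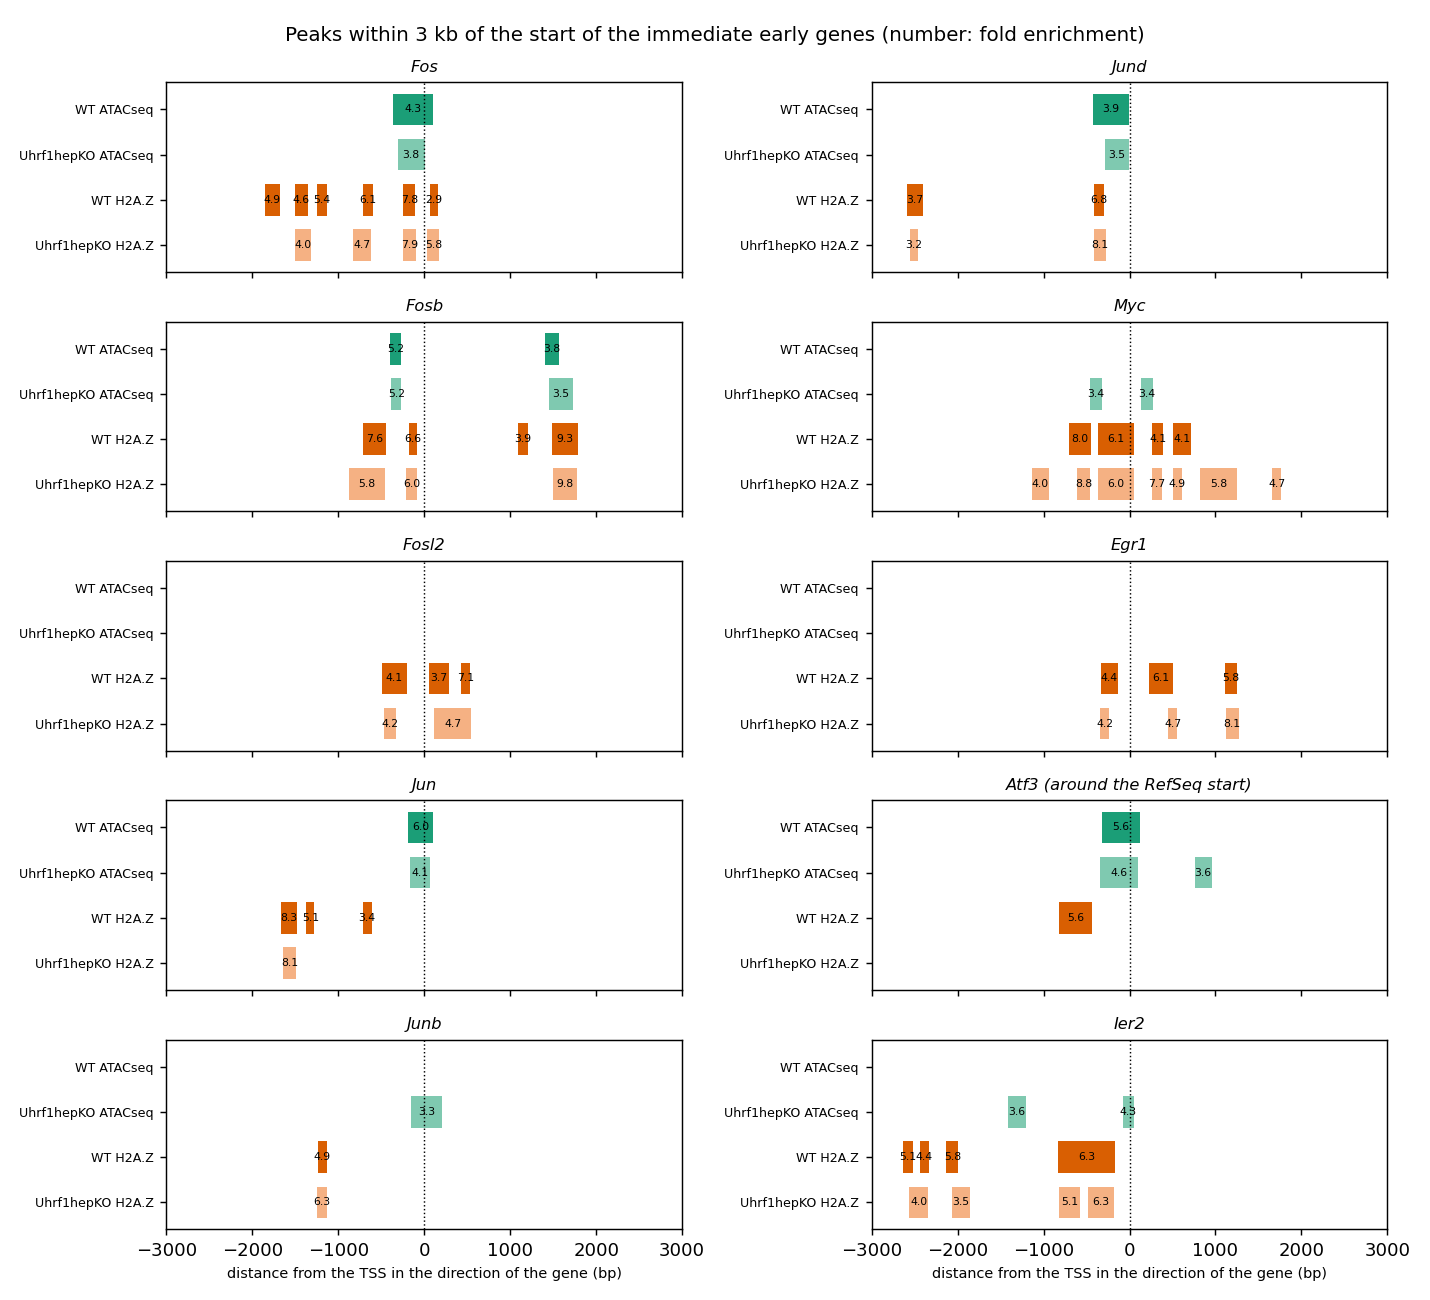
Peaks of the 4 lists within 3 kb of the start of each immediate early gene, with distance from the TSS in the direction of the gene (bp) on the horizontal axis, 1 line per list and the fold printed on each peak; Atf3 is drawn around its RefSeq start inside the gene. Fos, Fosb, Jun, Jund and Atf3 have an ATACseq peak at or just upstream of the start in both livers, Junb, Myc and Ier2 in Uhrf1hepKO only, and Fosl2 and Egr1 in neither.

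Fos, the partner of JUN proteins in AP-1 (ENSMUSG00000021250, chr12:85473890-85477273, plus strand), had 1 ATACseq peak in each liver, and both covered the TSS. The WT peak was centred 130 bp upstream, was 458 bp wide and had a fold of 4.29 (q 0.00169). The Uhrf1hepKO peak was centred 152 bp upstream, was 312 bp wide, ended 4 bp past the first base of the gene and had a fold of 3.75 (q 0.0104). Fos had 6 WT and 4 Uhrf1hepKO H2A.Z peaks, all from 1760 bp upstream to 85 bp downstream of the TSS. The highest was at the promoter in both livers, 185 bp upstream with 31 reads at the summit in WT (exact Poisson 95% interval 21.1 to 44.0) and 175 bp upstream with 33 reads (22.7 to 46.3) in Uhrf1hepKO. A peak in the exon at the start had its summit 85 bp downstream in both, with 11 reads (5.49 to 19.7) in WT and 24 (15.4 to 35.7) in Uhrf1hepKO, and these intervals overlap. Upstream, 2 WT peaks had no Uhrf1hepKO partner, at 1760 bp (19 reads) and 1185 bp (21 reads). The pairs at 1422 bp (18 reads) and 647 bp (24 reads) in WT were at 1414 bp (16 reads) and 682 bp (19 reads) in Uhrf1hepKO.

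Fosb, a second FOS family partner of JUN (ENSMUSG00000003545, chr7:19302696-19310051, minus strand), had a narrow ATACseq peak at the promoter in both livers. It was 336 bp upstream in WT (129 bp wide, fold 5.17, q 7.79e-06) and 324 bp upstream in Uhrf1hepKO (116 bp wide, fold 5.16, q 3.01e-06). H2A.Z summits stood on both sides of it. They were 147 bp and 501 bp upstream of the TSS in WT (26 and 30 reads) and 159 bp and 514 bp upstream in Uhrf1hepKO (25 and 24 reads), which is 101 to 132 bp from the edges of the ATACseq peaks. Fosb was the 1 member with H2A.Z on either side of its promoter ATACseq peak in both livers.

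Inside Fosb an exon held an ATACseq peak 1488 bp downstream of the TSS in WT (fold 3.84) and 1589 bp downstream in Uhrf1hepKO (fold 3.51). Both contained the summit of a high H2A.Z peak, 1558 bp downstream with 37 reads in WT and 1556 bp downstream with 41 reads in Uhrf1hepKO. A WT H2A.Z peak in an exon 1167 bp downstream (15 reads) had no partner. At the far end of the region, about the promoter of the lincRNA Gm26802, WT had H2A.Z summits of 37 and 28 reads, and Uhrf1hepKO had 1 broader peak of 320 bp with 44 reads, the highest of any member. Only Uhrf1hepKO had an ATACseq peak there (fold 3.33, q 0.091). The upstream end of the region touched a WT ATACseq peak of fold 4.97 in an exon of D830036C21Rik, whose Uhrf1hepKO partner (fold 5.92) lay just outside, and an H2A.Z peak near it had 23 and 25 reads.

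Fosl2, which encodes the FOS-related protein FRA2 (ENSMUSG00000029135, chr5:32135801-32157842, plus strand), had no ATACseq peak at the promoter in either liver. Its WT peak lay in an exon 19799 bp downstream (fold 3.52, q 0.0673) and its Uhrf1hepKO peak in an intron 3903 bp downstream (fold 3.53, q 0.0284), and neither had a partner. Both were below the median fold of their list. H2A.Z was at the promoter in both livers, with 16 reads 439 bp upstream in WT and 17 reads 398 bp upstream in Uhrf1hepKO. In the exon at the start, WT had summits 217 bp (14 reads) and 475 bp (28 reads) downstream, where Uhrf1hepKO had 1 peak of 435 bp with its summit at 493 bp (19 reads). The Uhrf1hepKO ATACseq peak in the intron contained an H2A.Z summit 3925 bp downstream with 32 reads, and WT had an H2A.Z peak 3936 bp downstream with 25 reads without an ATACseq peak. A further WT peak 3645 bp downstream (20 reads) had no partner.

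Jun, the central partner of AP-1 (ENSMUSG00000052684, chr4:95049034-95052222, minus strand), had the highest fold of any ATACseq peak at a member's TSS in WT. The WT peak covered the TSS, with its centre 43 bp upstream (285 bp wide, fold 6.05, q 1.82e-11). The Uhrf1hepKO peak had its centre 52 bp upstream (230 bp wide, fold 4.09, q 0.0002), and it lay wholly within the WT peak. These folds are above the median of each list. The H2A.Z summit nearest the edge of the ATACseq peak, upstream, was 468 bp away in WT and 1410 bp away in Uhrf1hepKO. A summit 1574 bp upstream in WT (33 reads) and 1577 bp upstream in Uhrf1hepKO (34 reads), in an intron of the antisense gene Junos, was the 1 pair in the region. WT peaks 1306 bp (20 reads) and 653 bp (13 reads, q 0.0029) upstream had no partner. On the side of the gene, the next summit was 36772 bp from the edge of the ATACseq peak in WT and 46640 bp in Uhrf1hepKO.

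Junb, a JUN protein with weaker transforming activity than JUN (ENSMUSG00000052837, chr8:84974484-84978718, minus strand), had 1 ATACseq peak, in Uhrf1hepKO. It covered the TSS, with its centre 26 bp downstream (362 bp wide), and its fold of 3.3 was the lowest of the 16 peaks of that list at the members (q 0.0241). Neither liver had H2A.Z within 1 kb of the TSS. The nearest was 1167 bp upstream with 19 reads in WT and 1184 bp upstream with 26 reads in Uhrf1hepKO. The other H2A.Z peaks were at neighbours: 25 and 20 reads at a site nearer to Hook2, and from 17 to 31 reads about the promoters of Rnaseh2a, Gm49661 and Prdx2.

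Jund, the JUN family member that is present in many resting cells (ENSMUSG00000071076, chr8:70698949-70700616, plus strand), had an ATACseq peak that ended 8 bp before the TSS in both livers. The WT peak was 414 bp wide with a fold of 3.89 (q 0.00399), and the Uhrf1hepKO peak 276 bp wide with a fold of 3.52 (q 0.0218). An H2A.Z summit stood 353 bp upstream of the TSS in WT with 27 reads (17.8 to 39.3) and 346 bp upstream in Uhrf1hepKO with 34 reads (23.5 to 47.5). This summit was inside the WT ATACseq peak and 63 bp outside the narrower Uhrf1hepKO peak. No H2A.Z peak lay in the gene in either list, and the other pair was 2488 bp upstream (14 reads) in WT and 2532 bp upstream (13 reads) in Uhrf1hepKO.

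**Figure D3:**
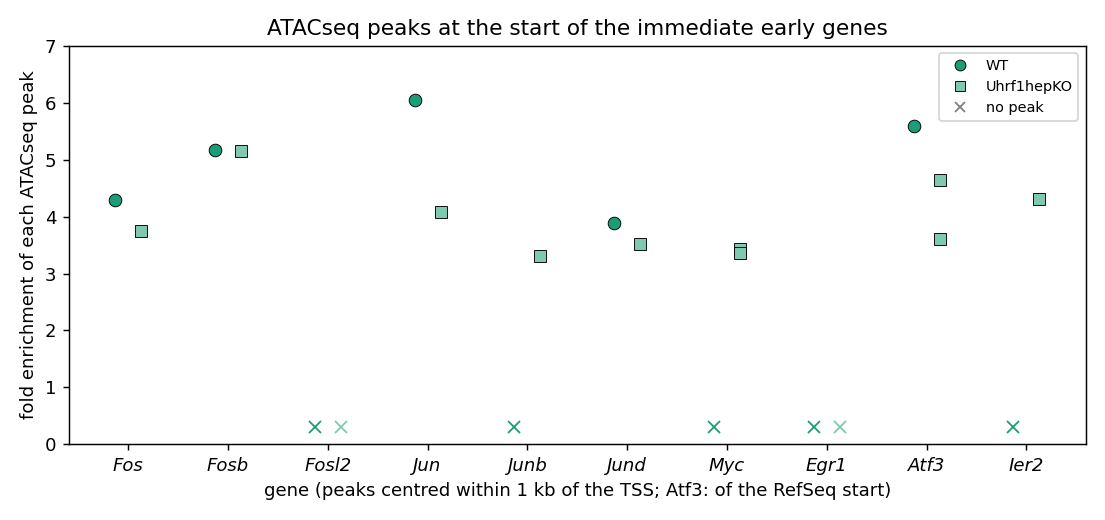
Fold of each ATACseq peak centred within 1 kb of the TSS of each immediate early gene (of the RefSeq start for Atf3), in WT (circles) and Uhrf1hepKO (squares), with a cross where the list has no peak. Folds of Fosb are 5.17 and 5.16, those of Jun 6.05 and 4.09, and Junb, Myc and Ier2 have squares only; folds are not scaled between the lists and there is 1 library per genotype.

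Myc (ENSMUSG00000022346, chr15:61985391-61990374, plus strand), whose protein binds E boxes with MAX, had ATACseq peaks in Uhrf1hepKO and none in WT. They were 389 bp upstream (131 bp wide, fold 3.44, q 0.0436) and 205 bp downstream of the TSS (133 bp wide, fold 3.36, q 0.0785). Both were below the median fold of the list and neither passed q of 0.01. The H2A.Z peaks at the promoter were alike in both livers. A summit 551 bp upstream had 32 reads in WT (21.9 to 45.2) and one 548 bp upstream had 37 in Uhrf1hepKO (26.1 to 51.0). A peak of 423 bp in WT and 429 bp in Uhrf1hepKO over the TSS had its summit 305 and 304 bp upstream, with 24 and 25 reads.

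Downstream of the Myc TSS the lists differed more. In WT the summits were 302 and 682 bp downstream, with 16 reads each (9.15 to 26.0). In Uhrf1hepKO they were 312 bp downstream with 32 reads (21.9 to 45.2), 552 bp with 20, 896 bp with 24 and 1723 bp with 19. The peaks 896 and 1723 bp downstream and another 1018 bp upstream (16 reads) had no WT partner, so 3 of the 4 Uhrf1hepKO H2A.Z peaks without one, over all 10 genes, were at Myc. The Uhrf1hepKO ATACseq peak at the promoter lay between H2A.Z summits 94 bp upstream and 20 bp downstream of its edges.

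Egr1 (ENSMUSG00000038418, chr18:34859823-34864984, plus strand), an early target of growth factor signals, had no ATACseq peak within 1 kb of its TSS in either liver. Its 1 ATACseq peak, in WT, was intergenic, 9546 bp upstream (147 bp wide), and had the highest fold of all member peaks of that list, 6.73 (q 8.8e-10). It had no Uhrf1hepKO partner, and the next H2A.Z summit towards the gene was 9289 bp away. H2A.Z marked the gene itself with 3 peaks in each liver. The promoter summit was 184 bp upstream in WT and 318 bp upstream in Uhrf1hepKO, with 17 reads in each. In the exons WT had 24 reads 287 bp downstream and 23 reads (14.6 to 34.5) 1198 bp downstream, and Uhrf1hepKO 19 reads 495 bp downstream and 34 reads (23.5 to 47.5) 1193 bp downstream.

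Atf3 (ENSMUSG00000026628, chr1:191170296-191218039, minus strand) has an annotated gene start that lies 34706 bp before the RefSeq start. No peak was within 1 kb of the gene start. The open site was at the RefSeq start, which the ATACseq peaks of both livers covered. In WT the peak was 442 bp wide with a fold of 5.6 (q 4.36e-08), and in Uhrf1hepKO 439 bp wide with a fold of 4.64 (q 2.35e-05), with centres 100 and 119 bp upstream of that start. Uhrf1hepKO had another peak 855 bp downstream of it (fold 3.61, q 0.0101) with no partner. With the start of any annotated transcript used, Atf3 joined the genes with a promoter ATACseq peak, 5 of 10 in WT (background 26.9%) and 8 of 10 in Uhrf1hepKO (background 24.6%). For H2A.Z that rule gave 8 of 10 in WT, with Atf3 added, and 7 of 10 in Uhrf1hepKO (backgrounds 43.7% and 42.3%).

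H2A.Z near the RefSeq start of Atf3 was found in WT only, as a peak of 381 bp with its summit 526 bp upstream and 22 reads (13.8 to 33.3). In Uhrf1hepKO the next summit upstream was 40569 bp from the edge of the ATACseq peak. In an exon at the far end of Atf3, ATACseq peaks were in both livers (fold 4.08 and 3.57), and an H2A.Z peak in WT (21 reads) had no partner. At the lincRNA D730003I15Rik, upstream of the gene start, ATACseq peaks had folds of 4.54 and 4.16 and the shared H2A.Z summit had 33 and 34 reads. A Uhrf1hepKO H2A.Z peak there (19 reads) was not in the WT list.

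Ier2 (ENSMUSG00000053560, chr8:84661331-84662852, minus strand) had ATACseq peaks in Uhrf1hepKO only. The peak at the TSS, 124 bp wide and centred 13 bp upstream, had a fold of 4.31 (q 0.000138), above the median of the list. The other was 1308 bp upstream (fold 3.6, q 0.0093). H2A.Z covered the promoter in both livers. In WT it was 1 peak of 662 bp with its summit 399 bp upstream (25 reads), and in Uhrf1hepKO 2 peaks with summits 244 bp (26 reads) and 691 bp (21 reads) upstream lay within the same stretch. Further upstream, at the lincRNA Gm26664, WT had 3 summits of 17 to 23 reads and Uhrf1hepKO 2 of 14 and 16. Past the end of the gene a pair of 27 and 30 reads was 6017 and 6162 bp downstream of the TSS.

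Across all members, 9 of the 11 WT ATACseq peaks overlapped a Uhrf1hepKO peak (81.8%, Wilson 95% interval 52.3 to 94.9%), and 61.3% of all WT ATACseq peaks did. Of the Uhrf1hepKO ATACseq peaks 8 of 16 overlapped a WT peak (50%, 28.0 to 72.0%), against 60.3% of that list. For H2A.Z the shares were 34 of 42 in WT (81.0%, 66.7 to 90%, list 70%) and 33 of 37 in Uhrf1hepKO (89.2%, 75.3 to 95.7%, list 75.6%). Each list share lay within the interval of the members. The 2 unshared WT ATACseq peaks were at Fosl2 and Egr1, and the 8 unshared Uhrf1hepKO peaks were 1 each at Fosb, Fosl2, Junb and Atf3 and 2 each at Myc and Ier2.

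The 34 WT H2A.Z peaks with a partner were set against it by the reads at the summit. The median was 24 reads in WT and 25 in Uhrf1hepKO, on backgrounds of 3.1 and 3.3 reads per base. Uhrf1hepKO was higher in 22 pairs, lower in 11 and equal in 1, and some pairs share a partner peak. The exact Poisson 95% intervals overlapped in all 34 pairs. Such an overlap does not show that the reads of a pair are equal, and no difference was tested. The site 85 bp downstream of the Fos TSS (11 and 24 reads) and the site 302 bp downstream of the Myc TSS (16 and 32 reads) were the furthest apart by ratio. Paired summits lay a median of 17.5 bp from each other, and 18 bp over all 35999 WT peaks with a partner.

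**Figure D4:**
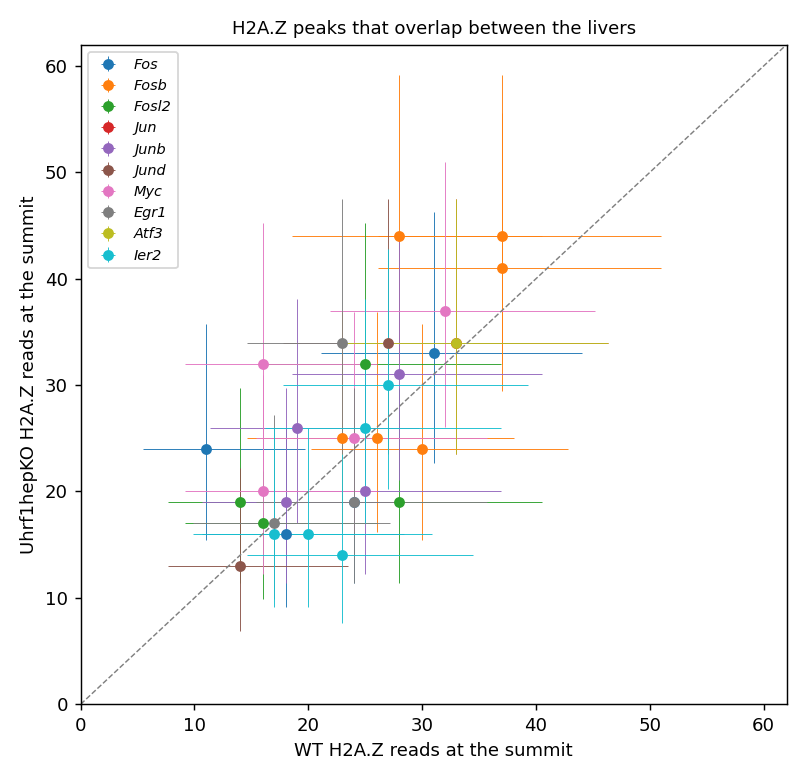
Reads at the H2A.Z summit in WT (horizontal axis) and Uhrf1hepKO (vertical axis) for the 34 WT peaks of the member regions with a partner, coloured by gene, with exact Poisson 95% intervals for counting error as lines and equal reads as the dashed line. The intervals of the livers overlap in all 34 pairs, and the point of Jun (33 and 34 reads) lies under that of Atf3.

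An ATACseq peak at the promoter with an H2A.Z summit within 500 bp of each edge was found at 1 member in WT (Fosb), against 8.71% of all protein-coding genes, and at 3 in Uhrf1hepKO (Fos, Fosb and Myc), against 7.11%. With peaks of q at most 0.01, the Uhrf1hepKO number was 1 (background 5.87%). At Fos the downstream summit, 85 bp past the TSS, was inside the wider WT ATACseq peak and 81 bp outside the Uhrf1hepKO peak. Within 1 kb of a member's TSS there were 17 H2A.Z summits in each liver, of which 11 were upstream and 6 downstream in each. The upstream share was 64.7%, and it was 53.2% in WT and 54.3% in Uhrf1hepKO over all protein-coding genes. In WT all 4 ATACseq peak centres within 1 kb were upstream, and in Uhrf1hepKO 6 of 8 were, against 56.4% and 58.4% over all protein-coding genes.

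Relatives of these genes were counted in the same way, from lists of names. Among 12 AP-1 relatives, 4 had a promoter ATACseq peak in WT and 6 in Uhrf1hepKO, and 5 had H2A.Z there in each. The highest WT promoter folds were those of Atf7 and Atf2, whose proteins pair with JUN, at 5.44 and 5.06 in ATACseq (5.72 and 4.93 in Uhrf1hepKO). Among 32 other immediate early genes the numbers were 12 and 13 for ATACseq and 16 and 15 for H2A.Z. They were led in ATACseq by Ier5 (6.68 and 6.28) and Klf6 (6.3 and 7.72), and in H2A.Z by Socs3, the feedback inhibitor of cytokine signals (8.04 and 6.97), and Srf, serum response factor itself (7.56 and 9.76).

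Of 19 genes upstream of the immediate early genes, such as kinases, receptors and transcription factors, 9 in WT and 8 in Uhrf1hepKO had a promoter ATACseq peak, and 15 and 17 had H2A.Z. Mrtfa, a partner of serum response factor, had ATACseq folds of 8.21 and 7.78 and H2A.Z folds of 9.26 and 10.2. Of 12 genes of the MYC network, 5 in each liver had a promoter ATACseq peak, and 7 and 9 had H2A.Z. Mxd1, a MAX partner that opposes MYC, had ATACseq folds of 6.5 and 6.73, and Max, whose protein MYC needs to bind DNA, 5.84 and 4.52. The promoter shares of all protein-coding genes, in WT and Uhrf1hepKO, were 22.3% and 20.5% for ATACseq and 37.5% and 36.2% for H2A.Z. The lists, like the members, were rich in CpGs (medians of 74 to 87 within 500 bp of the TSS). Among protein-coding genes with at least 17 CpGs the shares were higher, 32.1% and 29.4% for ATACseq and 52.7% and 50.9% for H2A.Z. That set was not matched to these lists in CpG content.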

How the data were processed

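Peak lists of ATACseq and H2A.Z ChIPseq from 1 WT and 1 Uhrf1hepKO liver were used as deposited. The authors used BWA-MEM to align to GRCm38.p4, cleaned the alignments with PICARD (removal of duplicates is given for ChIPseq), and called peaks per library with MACS2, in broad mode with the BAMPE option for ATACseq. Their methods give a p-value of 0.05 for the calls, but the deposited q-values end near 0.0997 and 0.0993 in ATACseq and 0.05 and 0.0489 in H2A.Z, as limits set on q would leave them. The ATACseq reads are described as single-end, which that option does not suit. The mode for H2A.Z, a control, a shift of ATACseq reads and the version of MACS2 are not given in the sources used here. FastQC 0.11.5 and Trimmomatic are named in the submitters' processing notes. Each deposited peak has a score (10 times the −log10 q), a fold, the −log10 p-value and the −log10 q-value. The fold is a ratio of pileup to background made by the authors' caller. The deposited H2A.Z lists add the summit, an offset in bp. The authors' caller averaged ATACseq values over the peak, and no value is scaled between lists.

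For chromosomes 1 to 19, X and Y, the peaks were joined to GENCODE vM21 by overlaps of 1 bp. ATACseq peaks were placed by their centre and H2A.Z peaks by their summit, and q was computed from −log10 q. Reads at H2A.Z summits were recovered from the fold, (pileup + 1) / (background + 1), where the whole number within 0.05 also gave the deposited p-value, which held for 93.6% of WT and 91.4% of Uhrf1hepKO peaks. Wilson and exact Poisson 95% intervals cover counting error only. With 1 library per group no test was run. All members were named with every peak, and of the related lists the 2 genes with the highest WT promoter fold per assay; the text prints some of the latter. In those lists 4 names were matched through RefSeq synonyms (Ccn1, Ccn2, Mrtfa and Mrtfb). Members and lists were chosen with earlier results of these data known. The comparison with CpG-rich genes was added after seeing the data. Alternatives were a q of at most 0.01, folds at or above the median of the list, windows of 5 kb and 1 kb, other promoter and flank definitions, stricter overlaps, and other backgrounds. Scripts used matplotlib 3.10.9, scipy 1.17.1, pandas 2.3.3 and numpy 2.4.6 in Python 3.11.15 and were tested on simulated data.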

Additional observations from a re-analysis of the deposited data

How the results depend on the processing

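Of 80 alternative values, 53 stayed close to the reported one (counts within 1.5 times, shares within the Wilson interval) and 27 did not. The alternatives behind those 27 keep fewer peaks, narrower windows or fewer overlaps by construction. Wider promoter and flank definitions were among the 53. With q of at most 0.01, the Uhrf1hepKO ATACseq list had 4 members with a peak in the region, 3 with one at the promoter, 6 peaks and 1 promoter with H2A.Z on both sides, and 50% of the WT ATACseq peaks were shared. With folds at or above the list median, WT ATACseq had 4 members in the region, 2 at the promoter and 6 peaks, and Uhrf1hepKO ATACseq had 4, 3 and 5, with 1 promoter between H2A.Z peaks and 80% of peaks shared. The same limit left 20 Uhrf1hepKO H2A.Z peaks and 60.7% shared in WT H2A.Z. Within 5 kb of the TSS, WT ATACseq had 4 members and 5 peaks, 100% shared. Within 1 kb it had 4 members and 4 peaks, 100% shared, Uhrf1hepKO ATACseq had 8 peaks, and peaks overlapping the window in H2A.Z numbered 17 (94.1% shared) and 18. An overlap of 50% of both peaks left 50% of WT and 56.8% of Uhrf1hepKO H2A.Z peaks shared. Over all 55413 annotated genes, promoter peaks were in 10.4% and 9.59% for ATACseq and 17.6% and 16.8% for H2A.Z. The excess of Uhrf1hepKO promoter ATACseq peaks at the members was lost with q of at most 0.01. No paired analysis was possible because each group holds 1 library, and none could be left out. Sites that were not called are missing from the lists, and they need not be weak or closed. The hepatocyte genes Apoa1, Apob and Hnf4a, for example, had no peak within 5 kb of the TSS in any list. A missing peak at a member therefore does not show that the site is closed or lacks H2A.Z. The spread between mice is unknown.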
